A study of Rattus norvegicus with 24 samples.

Results

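The miR-183 cluster of the rat lung was followed through its 3 mature microRNAs, rno-miR-183-5p, rno-miR-96-5p and rno-miR-182. They were chosen by name, with or without the suffix of the 5′ arm, from the 719 rat microRNAs (miRNAs) on the array, and all 3 were among the 283 miRNAs bright enough to be tested. A miRNA is a short RNA that guides an Argonaute protein to messenger RNAs, mainly by pairing through its seed, the bases near its 5′ end. The 3 members are cut from hairpins that lie close together in the genome and are transcribed as 1 primary RNA in vertebrates. The cluster is best known from sensory cells of the inner ear and retina, where it is abundant, and mutations in the seed of miR-96 cause hearing loss. In lung it has been studied mostly in tumours, where it is often raised.

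The lungs came from Fischer-344 rats obtained at 7 to 8 weeks of age. The control group breathed filtered clean air, and 3 groups breathed air with hexanal, a volatile aldehyde, named 600 ppm, 1000 ppm and 1500 ppm. Exposure lasted 5 weeks, with 4 h on each of 5 days per week, and each group held 6 rats, 3 males and 3 females. The sample titles give ppm whereas the protocol text gives the same figures in milligrams per cubic metre, so ppm is only a name for the dose here. The RNA was taken from lung tissue, so a lower number of cells that make a miRNA cannot be told apart from less miRNA in each cell. Each rat had 1 single-colour array, and p-values describe the spread between these rats.

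The 24 arrays lay on 3 slides of 8, and the slides did not hold the groups evenly. All 8 rats of slide 1 were males (3 control, 3 of the 600 ppm group and 2 of the 1000 ppm group). Slide 2 mixed the sexes, with the 3 females of the control group, female 26 of the 600 ppm group, male 13 of the 1000 ppm group and every male of the 1500 ppm group. The 8 remaining females, all exposed, were on slide 3. All arrays were scanned on the same day. Before scaling, the 75th percentile of the probe intensity averaged 1068 ± 178, 722 ± 42.3 and 858 ± 94.8 over the 8 arrays of slides 1, 2 and 3 (SD). Markers of the endothelium, leukocytes, smooth muscle and the airway epithelium were above background on all 24 arrays, except rno-miR-449c-5p of ciliated cells on 13, and the brain miRNAs rno-miR-124-3p and rno-miR-9a-5p on 0. Of 6 striated muscle miRNAs 4 were tested, with rno-miR-133b-3p and rno-miR-499-5p on 24 arrays and rno-miR-208a-3p and rno-miR-206-3p on 0. The red blood cell miRNAs rno-miR-451-5p and rno-miR-144-3p were on 24 and the liver miRNA rno-miR-122-5p on 21. The red blood cell miRNA rno-miR-486 was not matched by name on the array.

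The sequences of the members are given because they show how closely the 3 are related. All 3 names were matched in the RefSeq table (assembly GRCr8), and the seed, bases 2 to 8 counted from the 5′ end, is given in capitals.
rno-miR-183-5p: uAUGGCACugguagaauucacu
rno-miR-96-5p: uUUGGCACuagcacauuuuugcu
rno-miR-182: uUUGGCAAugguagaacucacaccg
The seeds differed by 1 or 2 of 7 bases. From rno-miR-183-5p to rno-miR-96-5p the change was A2U, from rno-miR-96-5p to rno-miR-182 it was C8A, and from rno-miR-183-5p to rno-miR-182 it was both. A run of 5 bases, UGGCA at positions 3 to 7, was shared by all 3 and lay in the seed of 4 of the 693 mature rat miRNAs of the table (0.577%). No other mature rat miRNA of that table shared a whole seed with a member. Over the whole length rno-miR-183-5p and rno-miR-182 were the closest pair, with 18 of 22 positions identical when both were aligned at the 5′ end, against 13 of 22 for rno-miR-183-5p and rno-miR-96-5p.

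On GRCr8 the 3 hairpins lie on the minus strand of chromosome 4 within 3908 bases. The hairpins of Mir183 and Mir96 are 97 bases apart, and Mir182 follows after a further 3533 bases. They are shown as RefSeq gives them, with the member in capitals, to place each member in its hairpin. The entry of Mir182 ends 3 bases after the member and so does not hold an opposite arm.
Mir183, chr4:59756044-59756153: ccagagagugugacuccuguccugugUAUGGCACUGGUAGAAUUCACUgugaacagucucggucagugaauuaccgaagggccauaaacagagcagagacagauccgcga
Mir96, chr4:59755841-59755946: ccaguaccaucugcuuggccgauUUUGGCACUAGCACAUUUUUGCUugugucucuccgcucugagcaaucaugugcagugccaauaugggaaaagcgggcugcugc
Mir182, chr4:59752246-59752307: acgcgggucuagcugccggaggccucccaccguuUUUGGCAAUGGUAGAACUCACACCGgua
The opposite arms of the first pair of hairpins, rno-miR-183-3p and rno-miR-96-3p, were also on the array.
rno-miR-183-3p: uGAAUUACcgaagggccauaa
rno-miR-96-3p: cAAUCAUGugcagugccaauau
Neither was well above background on any of the 24 arrays, over 4 and 3 probes. Only the 5′ arms were therefore followed.

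Levels are given as log2 of the Cy3 intensity after each array was scaled to a common 75th percentile, and are not compared between probes. Over the 24 rats, rno-miR-183-5p ranged from 4.55 to 5.87, rno-miR-96-5p from 6.95 to 7.63 and rno-miR-182 from 4.57 to 5.53. The floor below which values were not distinguished lay at 3.50. Both probes of rno-miR-183-5p and both of rno-miR-96-5p were above background on all 24 arrays. Of the 3 probes of rno-miR-182, A_26_P00001809 was above background on 24 arrays, A_26_P00001808 on 20 and A_26_P00001807 on 0, and the last was not used. Of the spots of A_26_P00001808, 3.03% lay under the floor, and those of the other 5 probes used were all above it.

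The first question was whether hexanal changed the cluster. With both sexes together no member differed from control at any dose. For rno-miR-183-5p the control rats ran from 4.57 through a median of 5.07 to 5.83, the 600 ppm rats from 4.76 through 5.35 to 5.57, the 1000 ppm rats from 4.55 through 5.28 to 5.56 and the 1500 ppm rats from 5.05 through 5.35 to 5.87. The 4 groups overlapped, and the control group alone covered almost the whole range. For rno-miR-96-5p the group means were 7.29 ± 0.17 in control, 7.41 ± 0.16 at 600 ppm, 7.22 ± 0.10 at 1000 ppm and 7.23 ± 0.19 at 1500 ppm (SD, n = 6). For rno-miR-182 they were 4.94 ± 0.12, 5.19 ± 0.32, 4.98 ± 0.15 and 4.96 ± 0.29. In order of their means, 600 ppm was highest for rno-miR-96-5p and rno-miR-182 and 1500 ppm for rno-miR-183-5p, and neighbours in each order differed by less than the larger of their SDs.

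**Figure D1:**
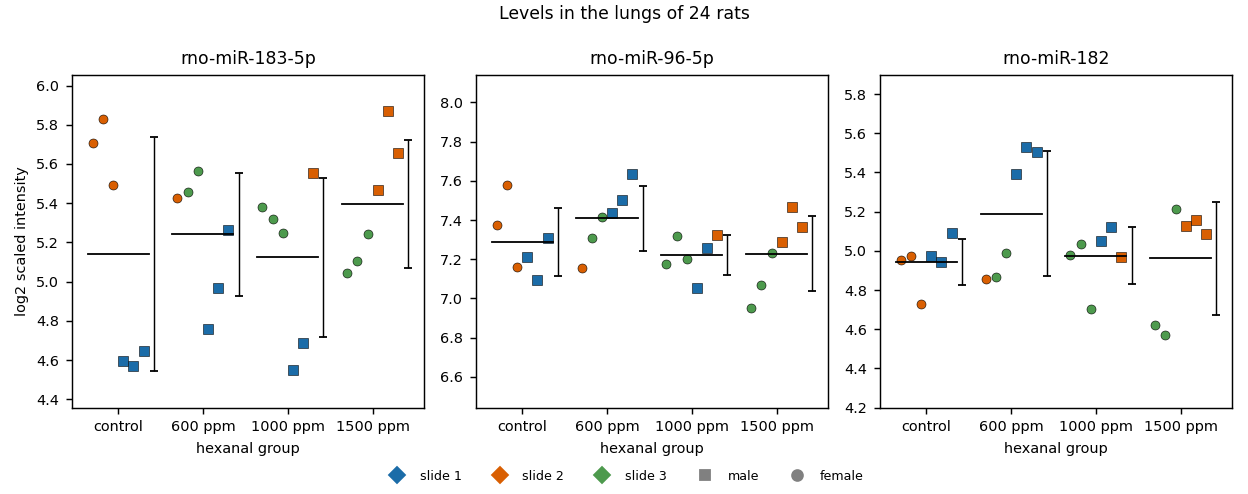
Level of each member (log2 scaled intensity, vertical axis) in the 24 rats by hexanal group (horizontal axis). Each point is 1 rat, coloured by slide and shaped by sex, with the mean as a line and the SD as a bar beside it. In rno-miR-183-5p the control males of slide 1 lie at 4.57 to 4.64 and the control females of slide 2 at 5.50 to 5.83.

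In the fit of all 24 arrays, rno-miR-183-5p differed from control by 0.10, -0.02 and 0.26 log2 at 600, 1000 and 1500 ppm (SE 0.23), and rno-miR-96-5p by 0.12, -0.06 and -0.06 (SE 0.09). rno-miR-182 differed by 0.25, 0.03 and 0.02 (SE 0.13). The limma adjusted p of the members was 0.996 at 600 ppm, 0.991 at 1000 ppm and between 0.652 and 0.985 at 1500 ppm. At each dose 0% of the 283 miRNAs passed in limma, with 5, 17 and 26 at an unadjusted p under 0.05. The 95% interval at 1500 ppm ran from -0.23 to 0.74 for rno-miR-183-5p, from -0.25 to 0.13 for rno-miR-96-5p and from -0.25 to 0.29 for rno-miR-182. The F test of any dose and the slope over dose also called 0 members and 0% of all miRNAs.

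The level of rno-miR-183-5p differed between slides. Sex and dose differ between the slides as well, so a slide difference cannot be told apart from them. Its mean over 8 arrays was 4.75 ± 0.25, 5.63 ± 0.17 and 5.29 ± 0.17 for slides 1, 2 and 3 (SD). The 8 arrays of slide 1 ran from 4.55 to 5.26 and those of slide 2 from 5.43 to 5.87, so the 2 slides did not overlap, which held in this direction for 14.5% of all miRNAs. Slide 2 was higher than slide 1 by 0.87 log2 (exact permutation, two-sided, p = 0.000155, the smallest 8 against 8 can give, and adjusted p = 0.00055 over 283 miRNAs). This was the highest positive difference among the 283, of which 57.2% were called between these slides. Slide 3 was higher than slide 1 by 0.54 (exact permutation adjusted p = 0.0031, 53% called) and lower than slide 2, with a difference of -0.33 (exact permutation adjusted p = 0.0476, 4.24% called).

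The other members did not follow. rno-miR-96-5p was at 7.31 ± 0.20, 7.34 ± 0.14 and 7.21 ± 0.15 on the 3 slides, and none of its slide differences was called (exact permutation adjusted p from 0.273 to 0.812). rno-miR-182 was at 5.20 ± 0.24, 4.98 ± 0.14 and 4.87 ± 0.22, and slide 3 lay below slide 1 with a difference of -0.33 (exact permutation adjusted p = 0.0316). That difference rested on probe A_26_P00001808, which fell from 4.51 ± 0.27 on slide 1 to 4.00 ± 0.26 on slide 3, where it was above background on 4 of 8 arrays. Probe A_26_P00001809 of the same miRNA was at 5.89 ± 0.21 and 5.75 ± 0.20, and with it alone the difference was -0.14 and not called (exact permutation adjusted p = 0.237).

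Both probes of rno-miR-183-5p were higher on slide 2 than on slide 1. Probe A_26_P00001413 rose from 4.51 ± 0.24 to 5.12 ± 0.16 and probe A_26_P00001414 from 5.00 ± 0.26 to 6.13 ± 0.18. The 2 slides did not overlap in A_26_P00001414. In A_26_P00001413 they did, with male 8 of slide 1 at 4.97 and female 26 of slide 2 at 4.95. Before scaling, A_26_P00001413 had mean intensities of 28.0, 29.3 and 29.2 on the 3 slides, nearly level, while A_26_P00001414 had 39.1, 58.7 and 53.6. Unscaled probes of rno-miR-96-5p were brighter on slide 1, at 204, 135 and 150 for A_26_P00001288. The difference between slides was thus present before scaling in A_26_P00001414 and nearly absent before scaling in A_26_P00001413.

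The best matched comparison is within the males at 1000 ppm, which were on both slides. For rno-miR-183-5p, males 11 and 12 on slide 1 were at 4.55 and 4.69 and male 13 on slide 2 was at 5.56. Male 13 was thus among the 8 arrays of its slide, and above every array of slide 1. For rno-miR-96-5p the same rats were at 7.06, 7.26 and 7.32, and for rno-miR-182 at 5.05, 5.12 and 4.97. With 1 rat on slide 2, these are values and not a test.

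The difference between 2 members on the same array does not depend on the factor by which the array was scaled. rno-miR-183-5p minus rno-miR-96-5p averaged -2.56 ± 0.10, -1.71 ± 0.07 and -1.91 ± 0.08 over the arrays of slides 1, 2 and 3 (SD, n = 8). The arrays of slide 1 lay between -2.67 and -2.37, below every array of the other slides, which ran from -2.003 to -1.60. The slides differed by 0.84 (slide 2 minus 1), 0.64 (slide 3 minus 1) and -0.20 (slide 3 minus 2), with exact permutation adjusted p of 0.00035, 0.00035 and 0.00056 over a family of 9. rno-miR-183-5p minus rno-miR-182 differed by 1.09, 0.87 and -0.22 (exact permutation adjusted p of 0.00035, 0.00035 and 0.0269). The pair without rno-miR-183-5p also differed from slide 1, by less. rno-miR-96-5p minus rno-miR-182 differed by 0.246, 0.225 and -0.021 (exact permutation adjusted p of 0.00093, 0.00999 and 0.789). These values average both probes of rno-miR-182. Probe A_26_P00001808 was at 4.51, 4.06 and 4.00 on slides 1, 2 and 3, and A_26_P00001809 at 5.89, 5.90 and 5.75. With A_26_P00001809 alone the slides were nearly level in this pair, which was not tested.

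**Figure D2:**
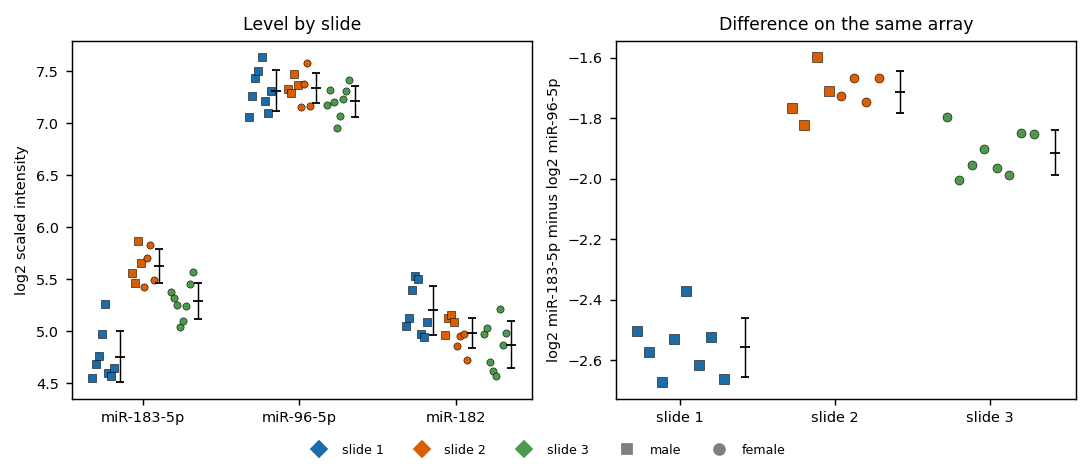
Left, level of each member (log2 scaled intensity) on slides 1, 2 and 3; right, the difference rno-miR-183-5p minus rno-miR-96-5p on the same array. Points are rats, squares for males and circles for females, and bars are the mean and SD of 8 arrays. The right panel shows slide 1 between -2.67 and -2.37 and the other slides from -2.003 to -1.60.

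Between dose groups the same differences were compared without regard to slide, and none was called. rno-miR-183-5p minus rno-miR-96-5p was -2.15 ± 0.50 in control and -1.83 ± 0.15 at 1500 ppm, a difference of 0.32. Over the 9 tests of the 3 pairs at 3 doses the exact permutation adjusted p ran from 0.779 to 0.924, where 6 against 6 could have given an unadjusted p of 0.0022. The control group, with its males on slide 1 and its females on slide 2, had the widest spread.

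In males the highest dose stood above control for rno-miR-183-5p. The 3 control males were at 4.57, 4.60 and 4.64 and the 3 males at 1500 ppm at 5.47, 5.66 and 5.87, with no overlap, which held in this direction for 31.1% of all miRNAs. The difference was 1.06 ± 0.18 log2 (SE, limma adjusted p = 0.00049), in a comparison where 36% of the miRNAs were called. rno-miR-96-5p differed by 0.17 ± 0.11 (limma adjusted p = 0.228) and rno-miR-182 by 0.12 ± 0.13 (limma adjusted p = 0.487). However, the control males were all on slide 1 and the males at 1500 ppm all on slide 2. With slide as a block the difference of rno-miR-183-5p was 0.12 ± 0.21 (limma adjusted p = 1.0), 0% of miRNAs were called with 4 at an unadjusted p under 0.05, and the estimate then rested on male 13, the only male at another dose on slide 2.

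At 600 and 1000 ppm no member was called in males, where 0% and 1.06% of all miRNAs passed. In females the means of rno-miR-183-5p were 5.68 ± 0.17 in control, 5.48 ± 0.07 at 600 ppm, 5.32 ± 0.07 at 1000 ppm and 5.13 ± 0.10 at 1500 ppm (SD, n = 3), so they were ordered by dose. The 3 control females were at 5.50, 5.71 and 5.83 and the 3 females at 1500 ppm at 5.05, 5.10 and 5.24, with no overlap, as was so in this direction for 13.8% of all miRNAs. The difference at 1500 ppm was -0.55 ± 0.18 (SE) and was not called (limma adjusted p = 0.285). The fit that holds slide fixed gave -0.63 ± 0.21 (limma adjusted p = 0.505). No member and 0% of all miRNAs were called in females at any dose, with 29, 51 and 39 at an unadjusted p under 0.05 in limma. The control females were on slide 2 and those at 1500 ppm on slide 3, and dose and slide are joined here only by female 26 at 600 ppm, at 5.43 on slide 2 against 5.46 and 5.57 for females 27 and 28 on slide 3.

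The response to 1500 ppm was higher in males than in females by 1.61 ± 0.26 for rno-miR-183-5p (SE, limma adjusted p = 0.0021) and by 0.46 ± 0.15 for rno-miR-96-5p (limma adjusted p = 0.0228), against 0.21 ± 0.18 for rno-miR-182 (limma adjusted p = 0.384). In this comparison 35.3% of the miRNAs were called, and in those of 600 and 1000 ppm 0 members were called and 0% and 0.707% of all. The call for rno-miR-96-5p was lost when control male 2, control female 22, male 17 or female 36 was left out, with 0.35 to 0.41 log2 and limma adjusted p of 0.0581 to 0.0677. With slide as a block the values were 0.75 ± 0.30, 0.50 ± 0.26 and 0.40 ± 0.33 in the same order (limma adjusted p = 0.83 for each), where 0% were called with 9 at an unadjusted p under 0.05. The value of rno-miR-96-5p was thus nearly the same with and without slide, with an SE that rose by more than 1.5 times, whereas that of rno-miR-183-5p fell.

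Over all doses in males, rno-miR-183-5p (F = 11.6, limma adjusted p = 0.0024) and rno-miR-182 (F = 5.80, limma adjusted p = 0.0208) were called, as were 35.3% of miRNAs, and rno-miR-96-5p was not (F = 4.13, limma adjusted p = 0.0589). The call of rno-miR-182 was lost without male 7 or male 8 at 600 ppm (limma adjusted p of 0.0909 and 0.0783). In females no member and 0% were called. The interaction of dose and sex was called for rno-miR-183-5p (F = 13.0, limma adjusted p = 0.0091) and for 25.1% of miRNAs, and not for rno-miR-96-5p or rno-miR-182 (limma adjusted p of 0.0668 and 0.156). With slide as a block 0% of miRNAs were called in the fits of any dose in males and of the interaction, with 13 and 12 at an unadjusted p under 0.05.

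**Figure D3:**
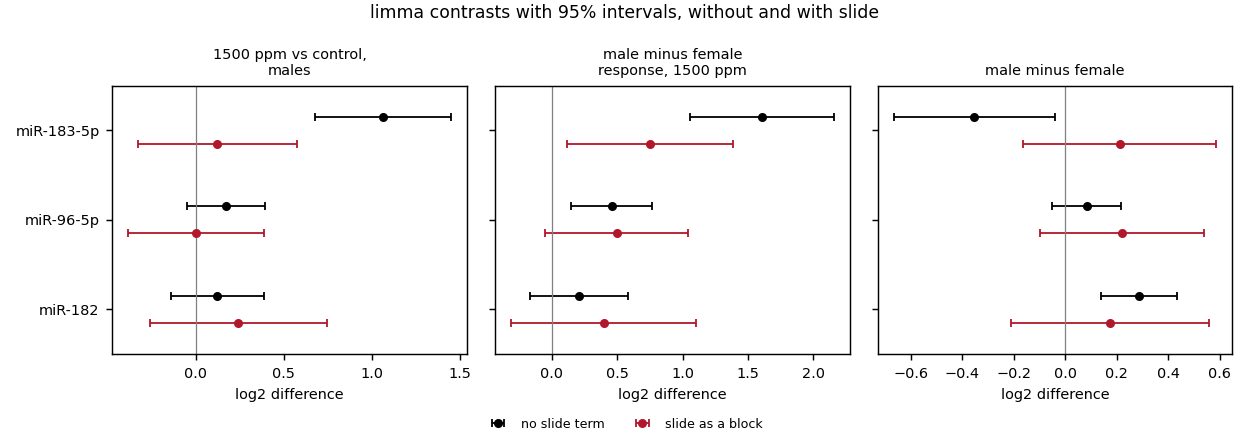
Log2 differences (horizontal axis) with 95% intervals for the 3 members in the limma fits without a slide term (black) and with slide as a block (red), from left to right for 1500 ppm minus control in males, the male minus female response at 1500 ppm, and male minus female. For rno-miR-183-5p at 1500 ppm in males the value is 1.06 without slide and 0.12 with it.

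Between the sexes rno-miR-182 was higher in males by 0.29 ± 0.07 (SE, limma adjusted p = 0.0038), against 43.8% of miRNAs called. rno-miR-183-5p was lower in males, with -0.35 ± 0.15 (limma adjusted p = 0.0644), and rno-miR-96-5p differed by 0.08 ± 0.06 (limma adjusted p = 0.283). The call for rno-miR-183-5p turned on single arrays, since leaving out male 13, male 17, male 18, female 36, female 37 or female 38 brought its limma adjusted p to between 0.0235 and 0.0461. The probes of rno-miR-182 were not alike, at 0.42 for A_26_P00001808 and 0.15 for A_26_P00001809. With slide as a block rno-miR-182 differed by 0.17 ± 0.18 and was not called (limma adjusted p = 0.62, 3.53% called), and rno-miR-183-5p turned to 0.21 ± 0.18. Slide 1 held no female and slide 3 no male, and on slide 2 no dose group held both sexes, so the value of this fit depends on dose differences taken from the other slides.

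Dose could be compared with slide held fixed in the males of slide 1. There all 3 members stood higher at 600 ppm than in control. rno-miR-182 was at 4.94, 4.97 and 5.09 in control and at 5.39, 5.51 and 5.53 at 600 ppm. rno-miR-96-5p was at 7.09, 7.21 and 7.31 and at 7.43, 7.50 and 7.63, and rno-miR-183-5p at 4.57, 4.60 and 4.64 and at 4.76, 4.97 and 5.26. No member's groups overlapped, which held for 6.71% of the 283 miRNAs in this direction. The differences were 0.47 ± 0.06 for rno-miR-182 (SE, limma adjusted p = 0.0417), 0.32 ± 0.09 for rno-miR-96-5p and 0.39 ± 0.12 for rno-miR-183-5p (limma adjusted p = 0.568 for both). rno-miR-182 was the only miRNA called (0.353%), and 21 had an unadjusted p under 0.05.

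The call for rno-miR-182 was not firm. It was lost under each of 12 other settings (limma adjusted p from 0.0616 to 0.993) and when any array of these males but male 6 was left out (0.0664 to 0.251). The 3 males at 600 ppm also had dimmer arrays, with unscaled 75th percentiles of 1051.5, 1000.2 and 677, against 1225.5, 1065 and 1183 in control. Before scaling the groups overlapped, with rno-miR-182 at 34.1 to 41.6 in control and 31.5 to 47.7 at 600 ppm (total gene signal). Whether array brightness has a part in the difference was not tested. Within arrays, where the scale factor cancels, rno-miR-96-5p minus rno-miR-182 was 2.15, 2.22 and 2.24 in these controls and 1.97, 2.04 and 2.13 at 600 ppm. These groups did not overlap, but with probe A_26_P00001809 alone for rno-miR-182 they did. The share of other pairs of miRNAs without overlap was not computed. rno-miR-183-5p minus rno-miR-182 was -0.40 ± 0.04 and -0.48 ± 0.21, and rno-miR-183-5p minus rno-miR-96-5p was -2.60 ± 0.07 and -2.53 ± 0.15 (SD, n = 3), both with overlap. These differences within slide 1 were not tested.

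**Figure D4:**
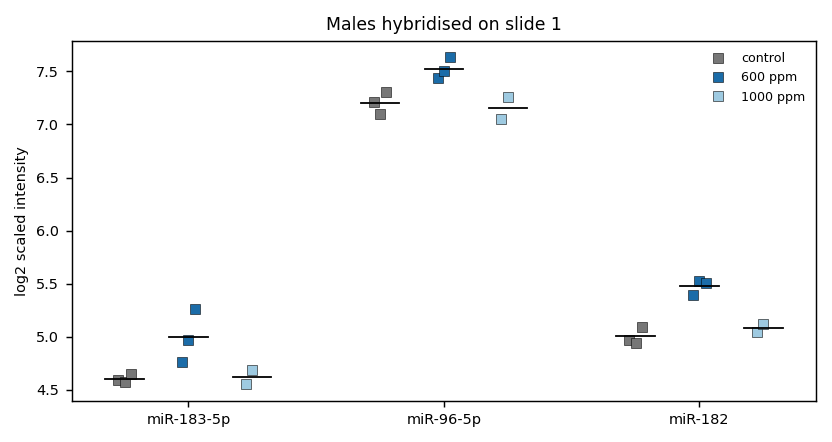
Level of each member (log2 scaled intensity) in the males of slide 1, 3 control, 3 at 600 ppm and 2 at 1000 ppm. Squares are rats and lines are means. The 600 ppm rats lie above the control rats in all 3 members, and the 1000 ppm rats lie near control.

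The 2 males at 1000 ppm on the same slide did not share the difference. They were at 5.05 and 5.12 for rno-miR-182, 7.06 and 7.26 for rno-miR-96-5p and 4.55 and 4.69 for rno-miR-183-5p, within or close to the control range. The differences from control were 0.08 ± 0.07, -0.05 ± 0.10 and 0.01 ± 0.14 (SE), none called (limma adjusted p = 0.978, with 0% of miRNAs called and 13 at an unadjusted p under 0.05).

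In the females of slide 3 the highest dose was compared with the lower ones. rno-miR-183-5p was at 5.46 and 5.57 at 600 ppm, 5.25, 5.32 and 5.38 at 1000 ppm and 5.05, 5.10 and 5.24 at 1500 ppm, so the 3 groups did not overlap, which held in this order for 2.12% of the 283 miRNAs. With probe A_26_P00001414 alone the groups at 1000 and 1500 ppm overlapped, since female 38 was at 5.77 and female 32 at 5.71. Before scaling its total gene signal was 61.9 and 63.0 at 600 ppm, 46.6 to 64.1 at 1000 ppm and 41.0 to 48.8 at 1500 ppm, with overlap. From 600 to 1500 ppm rno-miR-183-5p differed by -0.38 ± 0.08 (SE, limma adjusted p = 0.129), rno-miR-96-5p by -0.28 ± 0.10 (limma adjusted p = 0.328) and rno-miR-182 by -0.13 ± 0.21 (limma adjusted p = 0.772). For rno-miR-183-5p the steps from 600 to 1000 ppm and from 1000 to 1500 ppm were -0.20 ± 0.08 and -0.19 ± 0.07, neither called (limma adjusted p of 0.96 and 0.526). In each of these 3 comparisons 0% of miRNAs were called, with 37, 13 and 25 at an unadjusted p under 0.05 for 1500 against 600, 1000 against 600 and 1500 against 1000 ppm.

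Within each slide rno-miR-183-5p and rno-miR-96-5p moved together from rat to rat, and rno-miR-182 did so with both only on slide 1 by the same tests. Whether the correlation of rno-miR-182 differs between slides was not tested. The rats of a slide differed in dose, and on slide 2 in sex, and these tests did not hold dose or sex fixed. The members on an array also share its scale factor. The correlation of rno-miR-183-5p and rno-miR-96-5p was r = 0.92, 0.91 and 0.90 on slides 1, 2 and 3 (rho 0.98, 0.95 and 0.79, n = 8 each), with exact permutation adjusted p of 0.00067, 0.0037 and 0.0049 for r and 0.0036, 0.0051 and 0.0503 for rho over 9 tests. Without the 2 rats farthest from the median of rno-miR-183-5p, r was 0.94, 0.84 and 0.73. The correlation of rno-miR-182 with rno-miR-183-5p was 0.88 on slide 1 (rho 0.90, exact permutation adjusted p of 0.0037 and 0.0137, and r = 0.90 without the 2 farthest rats), and 0.47 and 0.56 on slides 2 and 3 (rho 0.48 and 0.45, exact permutation adjusted p of 0.241 and 0.165 for r and 0.267 for rho). Without the 2 farthest rats these were 0.30 and 0.42. With rno-miR-96-5p it was 0.92, 0.58 and 0.67 (rho 0.88, 0.55 and 0.71, exact permutation adjusted p of 0.0037, 0.162 and 0.107 for r and 0.0163, 0.22 and 0.0864 for rho), and 0.96, 0.79 and 0.60 without the 2 farthest rats.

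Likeness to all miRNAs tested is given as a description over 24 arrays that share scaling, slide and dose. With the mean of each slide removed, rno-miR-96-5p ranked 1 of 282 in likeness to rno-miR-183-5p (Pearson r = 0.91) and rno-miR-182 ranked 3 (r = 0.69), after rno-miR-455-3p (r = 0.78). For rno-miR-96-5p the first neighbours were rno-miR-183-5p and rno-miR-182 (r = 0.76), and for rno-miR-182 they were rno-miR-96-5p and rno-miR-183-5p. With slide means kept, rno-miR-96-5p ranked 100 in likeness to rno-miR-183-5p (r = 0.41) and rno-miR-182 ranked 189 (r = -0.13), whereas rno-miR-324-5p, named after its value was seen, came first (r = 0.93).

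**Figure D5:**
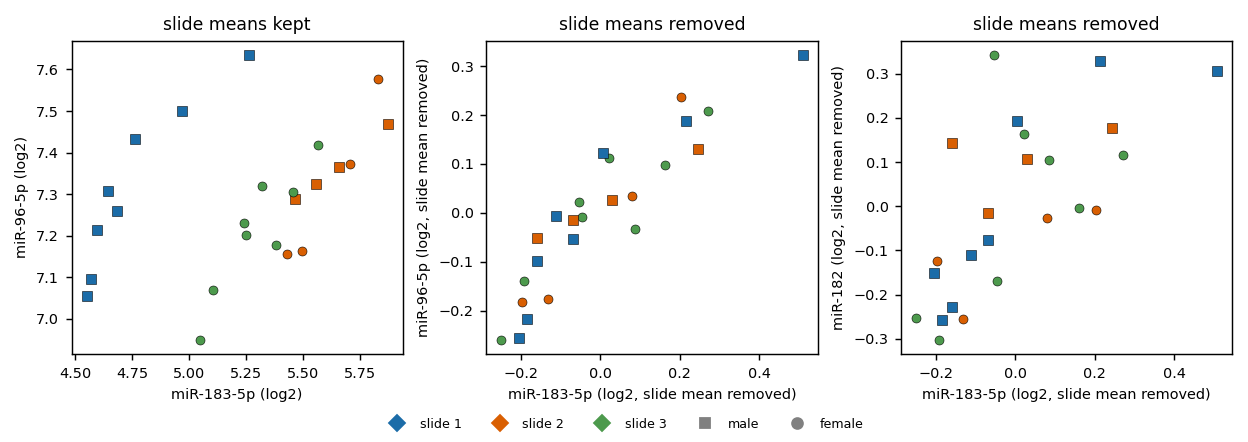
Each point is 1 rat, coloured by slide, with squares for males and circles for females. Left, rno-miR-183-5p (horizontal, log2) against rno-miR-96-5p (vertical, log2) with slide means kept, where slide 1 lies to the left at heights like those of slide 2; middle and right, rno-miR-183-5p against rno-miR-96-5p (r = 0.91) and rno-miR-182 (r = 0.69) with slide means removed.

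Array brightness moved with the members on some slides. With slide means removed, the level of rno-miR-183-5p correlated with the log2 array percentile at r = -0.55 over 24 arrays, that of rno-miR-96-5p at -0.40 and that of rno-miR-182 at -0.27, against a median of -0.16 over all miRNAs with quartiles of -0.36 and -0.01. On slides 1, 2 and 3 separately, r was -0.93, -0.75 and 0.46 for rno-miR-183-5p. In the same slide order rno-miR-96-5p had r of -0.78, -0.59 and 0.59, while rno-miR-182 had -0.71, -0.11 and 0.51. With array brightness removed as well, rno-miR-96-5p stayed first for rno-miR-183-5p (r = 0.91) and the ranks of rno-miR-182 remained 3 and 2. With the mean of each cell of slide, sex and dose removed, rno-miR-183-5p and rno-miR-96-5p were each first for the other (r = 0.80), and rno-miR-182 ranked 15 for rno-miR-183-5p (r = 0.52) and 2 for rno-miR-96-5p (r = 0.66).

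Of the 280 miRNAs outside the cluster, those most like the mean of the 3 members after removing slide means were rno-miR-455-3p (r = 0.79), rno-miR-455-5p (0.61), rno-let-7e-5p (0.58), rno-miR-551b-3p (0.57) and rno-miR-103-3p (0.55). rno-miR-455-5p was above background on 7 arrays and rno-miR-551b-3p on 17, and the other 3 on 24. With slide means kept the first were rno-miR-455-5p (0.67), rno-miR-551b-3p (0.65) and rno-miR-497-5p (0.64). In the males of slide 1 rno-miR-455-3p was at 4.31 ± 0.04 in control and 4.56 ± 0.21 at 600 ppm (SD, n = 3), a difference of 0.25 ± 0.10 (SE) that was not called (limma adjusted p = 0.634).

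The cluster was set beside the miR-200 family, which marks epithelium, and 6 miRNAs of ciliated cells. After removing slide means the 5 members of the miR-200 family ranked from 42 (rno-miR-429, r = 0.36) to 129 (rno-miR-200a-3p, r = 0.14) of 280 in likeness to the cluster, and the ciliated miRNAs from 84 (rno-miR-449a-5p, r = 0.26) to 191 (rno-miR-34c-3p, r = -0.04). Between slides 2 and 1 the median difference was 0.04 in the miR-200 family, with 1 of 5 called, and -0.08 in the ciliated list, with 0 of 6 called. Over all 283 miRNAs it was 0.06, with 57.2% called. In the ciliated list the median difference of slide 3 from slide 1 was 0.34, with 3 of 6 called and 6 of 6 positive. From slide 2 it was 0.48, with 1 called and 6 of 6 positive. The same medians were 0.07 and -0.0033 in the miR-200 family, with 1 and 0 of 5 called. Over all 283 miRNAs they were 0.07 and 0.01, with 53% and 4.24% called, so 3 of 6 lay near the share of all. The part of airway cells in the slide differences of the members was not tested. At 600 ppm in the males of slide 1, 0 of 5 and 0 of 6 were called, with medians of 0.04 and 0.08 beside 0.01 over all, and at 1500 against 600 ppm in the females of slide 3 the medians were -0.19 and -0.05 beside -0.07. In males at 1500 ppm without a slide term, 1 of 5 members of the miR-200 family was called (rno-miR-429, 0.36, limma adjusted p = 0.0006) and 0 of 6 ciliated miRNAs, and with slide as a block 0 of either. Over all miRNAs 36% were called without a slide term and 0% with slide as a block.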

How the data were processed

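Total RNA of 24 rat lungs was hybridised to single-colour Agilent rat miRNA arrays (14380 spots, 719 rat miRNAs). Per the file headers, the deposited files hold the background-corrected Cy3 intensity of each spot from Agilent Feature Extraction 11.5.1.1. The deposited series table was compared with them and held the unscaled total gene signal, an intensity, with values of 1 or less set to 1, and its log2 served as an alternative. Control spots and outlier flags were removed. Intensities were scaled to each array's 75th percentile over the 394 probes above background on all arrays, set to at least 11.3, converted to log2 and averaged per probe. Probes above background on 6 or more arrays were kept (555 probes, 283 miRNAs), and the probes of a miRNA were averaged. The number of rats limits the precision.

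Groups came from the sample labels and slides from the file headers. Contrasts used limma 3.58.1 (lmFit, eBayes, two-sided) in R 4.3.3, with Benjamini-Hochberg adjustment over 283 miRNAs, at an adjusted p of 0.05. Slides and within-array differences were compared by exact permutation tests. The code was checked on simulated data. Alternatives were the scaling, background correction (normexp, offset 50), probe filter, floor, probe summary, series table, slide as a block, and each rat left out. The miRNAs named were the members, the other arms of their hairpins, the 5 most like the cluster mean with slide means removed and the 3 with them kept, and the extremes of the lists. Cell type markers were named for their detection, and rno-miR-324-5p was named after its value was seen. The members and lists were chosen with earlier results of these data known. Sequences are from RefSeq (GRCr8), in which 641 of the 719 array miRNAs were matched by name.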

Additional observations from a re-analysis of the deposited data

Results flagged for a closer look

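The level of rno-miR-182 in female 33 at 1000 ppm was 4.70, against 5.03 ± 0.06 (SD) in the other 5 rats of that group. Its gap to the nearest rat was 0.627 of the group's range, above the Dixon limit for 6 rats. It was the only such value in 24 groups tested, and chance gives about 1 in 20. The response to 1500 ppm differed between males and females for rno-miR-183-5p by 1.61 log2 (limma adjusted p = 0.0021) and for rno-miR-96-5p by 0.46 (limma adjusted p = 0.0228), and the interaction of dose and sex over all doses gave F = 13.0 for rno-miR-183-5p (limma adjusted p = 0.0091). Of all miRNAs, 35.3% were called for this response and 25.1% for the interaction. The control males and the males at 1500 ppm were on different slides, as were the females, and none of these 3 results was called with slide as a block.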

How the results depend on the processing

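The higher level of rno-miR-183-5p on slide 2 than on slide 1 kept its direction and its call in all 11 alternatives (0.61 to 1.13 log2), as did the within-array difference from rno-miR-96-5p in all 8 (0.56 to 1.17). The unscaled total gene signal was not among the 11. Its log2 mean for rno-miR-183-5p was 5.41 ± 0.10 on slide 1 and 5.79 ± 0.12 on slide 2 (SD), a smaller difference. The absence of calls between dose groups held in all 17 alternatives for each member. No paired analysis was possible because the groups share no replicate numbers. The alternatives within slides, for slides and for single probes, and normexp without 2 arrays, were chosen after seeing the data. The cause of the changes below was not tested.

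With slide as a block, rno-miR-183-5p was at -0.032 at 1500 ppm, 0.0069 at 1000 ppm, 0.12 at 1500 ppm in males, 0.75 for the male minus female response and 0.21 for male minus female, with F = 4.68 for any dose in males and 3.99 for the interaction. rno-miR-96-5p was at 0.50 for the male minus female response, and rno-miR-182 at 0.17 for male minus female and F = 5.05 for any dose in males. As a random block the same values were 0.0060 (1000 ppm), 0.68, 1.14, F = 4.31 and 4.26 in the case of rno-miR-183-5p, 0.48 in that of rno-miR-96-5p, and 0.23 and F = 5.61 for rno-miR-182.

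With normexp, in which control male 3 and female 26 stood apart, rno-miR-183-5p was at 0.58 (1500 ppm, males), 0.89 (male minus female response), F = 0.784 (any dose in males), F = 1.65 (interaction) and 0.30 (slide 3 minus 1). rno-miR-96-5p was at -0.093 (male minus female), 0.44 (response) and -0.35 (slide 3 minus 2). rno-miR-182 was at -0.14 (1000 ppm), -0.18 (male minus female), F = 0.259, 0.21 (slide 1 at 600 ppm), 0.030 (slide 3 at 1500 ppm), 0.49, -0.014 and -0.51 (slides 2 minus 1, 3 minus 1, 3 minus 2), and rno-miR-183-5p minus rno-miR-182 at -0.048 (slide 3 minus 2). Without those 2 arrays rno-miR-183-5p was at -0.046 (600 ppm) and F = 7.11 (interaction), rno-miR-96-5p at 0.30 (1500 ppm, males), F = 5.63 and -0.17 (slide 3 minus 2), and rno-miR-182 at -0.084 (1000 ppm), 0.45 (1500 ppm, males), 0.60 (response), -0.00012 (male minus female), 0.24, 0.034 and -0.20 (slides in the same order).

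In the unscaled series table rno-miR-183-5p was at 0.051 (1000 ppm) and F = 3.30 (any dose in males). rno-miR-96-5p was at 0.0055 (1000 ppm), -0.54 (1500 ppm, males), -0.44 (response), 0.29 (male minus female) and -0.059 (slide 1 at 600 ppm). rno-miR-182 was at -0.24 (1500 ppm), -0.53 (1500 ppm, males), -0.57 (response), 0.068 (slide 1 at 600 ppm) and F = 2.87. With the percentile over all probes rno-miR-183-5p was at 0.010 (1000 ppm) and -0.42 (slide 3 minus 2), rno-miR-96-5p at 0.35 (1500 ppm, males) and F = 4.85 (interaction), and rno-miR-182 at 0.49 (slide 1 at 600 ppm), F = 3.78 and -0.31 (slide 3 minus 1). With quantile normalization the values were 0.045 for rno-miR-183-5p (1000 ppm), 0.38 (response) and -0.020 (slide 2 minus 1) for rno-miR-96-5p, 0.53 (slide 1 at 600 ppm) and F = 4.10 for rno-miR-182, and -0.20 for rno-miR-183-5p minus rno-miR-182 (slide 3 minus 2).

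With no filter on dim probes rno-miR-182 was at 0.32 (slide 1 at 600 ppm), F = 5.80 and -0.21 (slide 3 minus 1), rno-miR-183-5p at -0.33 (slide 3 minus 2) and rno-miR-96-5p at 0.46 (response), all no longer called. With the brightest probe, with probes above background on all arrays, or with A_26_P00001809 alone, rno-miR-182 was at -0.0074 (1000 ppm), 0.40 (slide 1 at 600 ppm), 0.15 (male minus female), 0.011 (slide 2 minus 1) and -0.14 (slide 3 minus 1), and under the first 2 at 0.43 (response). With A_26_P00001808 alone it was at -0.019 (1500 ppm, males), -0.011 (1500 ppm), 0.55 (slide 1 at 600 ppm), -0.015 (response) and -0.45 (slide 2 minus 1). With the brightest probe rno-miR-183-5p was at -0.49 (male minus female), as with A_26_P00001414 alone, and with A_26_P00001413 alone at -0.27 (slide 3 minus 2). rno-miR-96-5p gave F = 4.11 (brightest) and 4.14 (above background on all arrays) for any dose in males, 0.35 (response) and -0.043 (slide 2 minus 1) with the brightest probe and A_26_P00001288 alone, and F = 4.36 (any dose in males) and 5.06 (interaction) with A_26_P00001289 alone. At 600 ppm on slide 1 rno-miR-182 was at 0.47 with the floor halved or the compared groups alone, and 0.38 with total gene signal, which also gave -0.017 (1000 ppm), -0.0076 (1500 ppm) and F = 3.24.

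Leaving out 1 rat at a time gave for rno-miR-183-5p -0.013 to 0.24 (600 ppm), -0.13 to 0.12 (1000 ppm) and -0.42 to -0.30 (male minus female). For rno-miR-182 it gave -0.011 to 0.087 (1000 ppm), -0.031 to 0.10 (1500 ppm), 0.45 to 0.52 (slide 1 at 600 ppm), F = 3.64 to 13.0 (any dose in males), and 0.090 to 0.41 (response) and F = 2.05 to 8.03 (interaction), both called without female 38. For rno-miR-96-5p it gave 0.35 to 0.56 (response), F = 2.48 to 4.94 (any dose in males, called without female 22, female 23 or male 13) and F = 3.10 to 6.29 (interaction, called without female 23, male 13 or female 38). At 600 ppm in males 0 to 1 members were called, the 1 without female 38.

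Counts over all miRNAs, with each rat left out included, ran from 0 to 147 for male minus female (124 as reported), 0 to 197 for 1500 ppm in males (102), 0 to 171 for the male minus female response at 1500 ppm (100), 0 to 130 for any dose in males (100) and 0 to 102 for the interaction (71). Without male 18 the counts for any dose in males and for the interaction were 59 and 34. They ran from 0 to 6 for 1000 ppm in males (3) and for its male minus female response (2), both highest without male 12. Counts of 0 rose to at most 1 (1500 ppm), 3 (slope), 1 (600 ppm in males, without female 38), 2 (600 ppm in females), 12 (1000 ppm in females, without female 26), 4 (1500 ppm in females), 5 (any dose in females, without female 37) and 106 (response at 600 ppm, series table).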
